A study of Homo sapiens with 12 samples.

Results

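Lysosomes are the cell's acid compartments for digestion, and autophagy is the route that wraps cytoplasm in a membrane and delivers it to them. The expression of 10 genes of this system was described in HK-2 cells, an immortalised line of human renal proximal tubular epithelium, of 19775 genes with a probe set on the array. The genes were MCOLN1, TFEB, LAMP1, LAMP2, CTSB, CTSD, CTSL, SQSTM1, GABARAPL1 and MAP1LC3B, and all probe sets that the array's annotation gives to exactly 1 of them were taken, 27 of 54675. A further probe set named for GABARAPL3 and GABARAPL1 together was left out. The series holds 12 arrays in 4 groups of 3, called biological replicates: cells given a low dose of a compound named Aa, and control cells given its vehicle, each for 24 h or 48 h. All groups grew in DMEM and Ham's F12 with EGF, hydrocortisone, insulin, transferrin and selenite, and were treated close to confluence. The sources used here name neither the vehicle nor Aa in full and give no dose in figures. HK-2 is a single cell line. The larger study set out to find expression patterns that mark toxic compounds.

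In this system the transcription factor TFEB sits at the top. When the kinase complex mTORC1, which senses nutrients on the lysosome's surface, is inactive, TFEB enters the nucleus and binds an E-box with the letters CACGTG in the promoters of many lysosomal genes. MCOLN1 is a cation channel of the lysosomal membrane whose calcium signal can activate TFEB through the phosphatase calcineurin. LAMP1 and LAMP2 are the abundant glycoproteins that line the inside of that membrane, and LAMP2 is spliced into forms of which one, LAMP2A, takes single proteins into the lysosome. CTSB and CTSL are cysteine proteases and CTSD is an aspartic protease of the lysosome. MAP1LC3B and GABARAPL1 are ubiquitin-like proteins that are joined to lipid on the growing autophagosome, and SQSTM1 carries ubiquitin-tagged cargo to them and is itself degraded with it. In the proximal tubule this machinery digests protein taken up from the filtrate.

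Promoter windows were read from RefSeq (GRCh38.p14) because these genes share TFEB as a known regulator. A window of 250 bases before to 50 bases after the start was found for 8 of the 10 genes. The sequences of 4 of them are shown from 240 bases before to 10 bases after the start, 5′ to 3′ in the direction of the gene, for the gene that rose most and for those that hold the E-box or lack it, with each CACGTG in capitals. They lie at chr19:7522384-7522633 (plus strand), chr13:113296999-113297248 (plus), chr11:1763918-1764167 (minus) and chr12:10212637-10212886 (plus).
MCOLN1: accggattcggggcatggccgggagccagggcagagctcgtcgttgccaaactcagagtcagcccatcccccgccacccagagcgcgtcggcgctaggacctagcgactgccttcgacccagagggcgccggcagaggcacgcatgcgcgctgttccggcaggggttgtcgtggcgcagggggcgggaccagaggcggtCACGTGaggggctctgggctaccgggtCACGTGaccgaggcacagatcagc
LAMP1: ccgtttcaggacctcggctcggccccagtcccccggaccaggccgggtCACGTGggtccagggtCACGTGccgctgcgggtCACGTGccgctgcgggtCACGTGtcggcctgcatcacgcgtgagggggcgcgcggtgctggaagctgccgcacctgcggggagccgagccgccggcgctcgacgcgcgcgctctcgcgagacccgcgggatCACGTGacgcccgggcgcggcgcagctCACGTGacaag
CTSD: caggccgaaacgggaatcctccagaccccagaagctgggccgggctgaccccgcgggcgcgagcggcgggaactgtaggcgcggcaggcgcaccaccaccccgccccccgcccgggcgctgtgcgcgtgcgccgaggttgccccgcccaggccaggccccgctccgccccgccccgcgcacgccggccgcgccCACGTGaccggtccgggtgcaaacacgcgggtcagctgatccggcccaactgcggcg
GABARAPL1: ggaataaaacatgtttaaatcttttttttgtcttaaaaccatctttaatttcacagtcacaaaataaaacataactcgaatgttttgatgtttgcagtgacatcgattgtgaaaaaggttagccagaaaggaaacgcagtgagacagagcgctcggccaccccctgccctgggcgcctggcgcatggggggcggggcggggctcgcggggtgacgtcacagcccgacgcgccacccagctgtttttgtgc
MCOLN1 held CACGTG 2 times, beginning 41 and 14 bases before the start, both within the longer TCACGTGA and one within GTCACGTGAC. LAMP1 held CACGTG 6 times, 192, 176, 159, 142, 28 and 1 bases before the start, 2 of them within TCACGTGA. CTSD held CACGTG once, 47 bases before the start. The windows of TFEB (3 starts), SQSTM1 (3 starts), CTSL, GABARAPL1 and MAP1LC3B did not hold these letters. Of all 35116 windows of the same length, 7.26% held CACGTG on either strand, 0.98% held TCACGTGA and 0.353% held GTCACGTGAC, the longer motifs being subsets of the shorter. TGACNNNGC, the core letters of the antioxidant response element that NRF2 binds, were searched on both strands because SQSTM1 takes part in the NRF2 pathway. It stood 2 times in the CTSD window and 1 time in those of LAMP1, CTSL and MAP1LC3B, and in 13.3% of all windows. It was not in the SQSTM1 windows.

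Values are log2 intensities, n = 3 arrays per group. A change is the Aa mean less the control mean, and its standard error (SE) comes from a limma model over all 12 arrays. In RNA from whole cultures, fewer cells of a kind and less RNA per cell cannot be told apart. A gene is represented by its brightest probe set, and it is said to have risen or fallen where the Benjamini-Hochberg adjusted p over 10791 tested genes was under 0.05. All 10 genes passed the filter of a mean of 4, as did 26 of their 27 probe sets. The values of 1 probe set do not give the transcript's amount, so levels are not compared between genes. At 24 h MCOLN1 alone of the 10 rose, against 10.3% of all tested genes that rose, and none fell, against 12.8%. In all, 23.1% of tested genes were called at 24 h. At 48 h MCOLN1, CTSL, GABARAPL1 and MAP1LC3B rose and LAMP2 and CTSB fell, 4 and 2 of 10, where 17.8% of tested genes rose, 20.1% fell and 37.8% were called in all. The median change of the 10 was -0.16 at 24 h and 0.13 at 48 h, beside -0.020 and -0.00089 over all tested genes. Their median size regardless of sign was 0.22 and 0.36, beside 0.24 and 0.32 over all genes. The Aa arrays lay wholly on one side of the controls in 4 of 10 genes at 24 h (40.5% of tested genes) and in 6 of 10 at 48 h (48.4%).

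**Figure D1:**
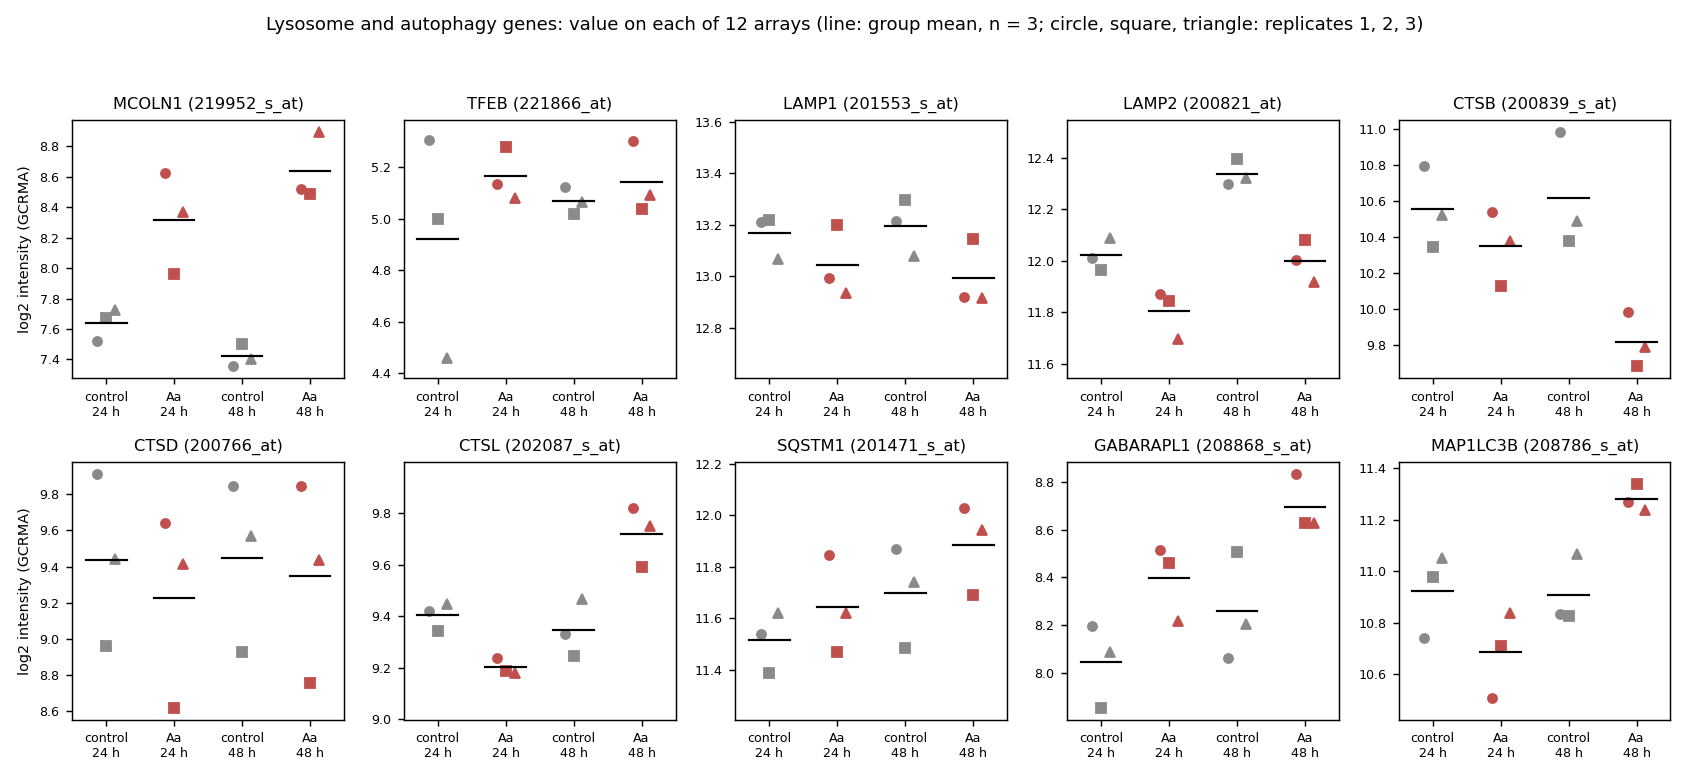
Log2 intensity (y axis) of the 10 genes by group (x axis), with 1 point per array, 3 arrays per group, shapes for replicate numbers and a line at each group mean. MCOLN1 has all Aa arrays above all control arrays at both times, and CTSD differs more between replicate numbers than between groups.

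MCOLN1 had the largest change among the brightest probe sets of the 10 genes at both times. At 24 h its values were 7.52, 7.67 and 7.73 in the control arrays and 8.63, 7.96 and 8.37 in the Aa arrays. At 48 h they were 7.36, 7.50 and 7.41 in the controls and 8.52, 8.49 and 8.90 with Aa. Every Aa array stood above every control array of its time, and the smallest gap was that of replicate 2 at 24 h. MCOLN1 rose 1.60-fold at 24 h (log2 change 0.68, SE 0.17, adjusted p = 0.0139) and 2.32-fold at 48 h (1.21, SE 0.17, adjusted p = 0.000416). The Aa and control arrays of equal replicate number differed by 1.11, 0.28 and 0.65 at 24 h and by 1.17, 0.99 and 1.49 at 48 h. The rise at 48 h kept its call in all 24 alternative settings, with adjusted p from 0.000163 to 0.0199. The rise at 24 h missed the threshold without replicate 1 (0.47, adjusted p = 0.210), without replicate 3 (0.70, adjusted p = 0.105), without the Aa array of replicate 1 (0.53, adjusted p = 0.0531) and without the control array of replicate 1 (0.62, adjusted p = 0.0529).

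TFEB, the transcription factor, lay between 4.46 and 5.31 on its brightest probe set, close to the filter, and its groups overlapped at both times. The 24 h controls were the most scattered group, with 5.31, 5.00 and 4.46, against 5.14, 5.28 and 5.08 with Aa. The change was 0.24 at 24 h (95% interval -0.15 to 0.63, adjusted p = 0.367) and 0.076 at 48 h (-0.32 to 0.47, adjusted p = 0.770). A second TFEB probe set ranged from 4.82 to 5.48, and it was not called either. TFEB is controlled largely by its place in the cell, which these arrays do not measure.

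LAMP1, on its brightest probe set, ranged from 13.07 to 13.30 in the control arrays and from 12.92 to 13.20 in the Aa arrays. The difference was -0.12 at 24 h (95% interval -0.36 to 0.12, adjusted p = 0.459) and -0.20 at 48 h (-0.44 to 0.036, adjusted p = 0.166). With the replicate number as a block, LAMP1 fell at 48 h (adjusted p = 0.0281), where 54.8% of tested genes were called. None of the 4 LAMP1 probe sets was called without the block, and all 4 had a difference below 0 at both times. With the block 201551_s_at also fell at 24 h (-0.29, adjusted p = 0.0200).

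LAMP2 gave different answers on different probe sets. On its brightest, 200821_at, the 24 h controls read 12.01, 11.96 and 12.09 and the Aa arrays 11.87, 11.84 and 11.70. At 48 h the controls read 12.30, 12.39 and 12.32 and the Aa arrays lay between 11.92 and 12.08. The Aa arrays were thus below the controls at both times, and the controls themselves were higher at 48 h than at 24 h. On this probe set LAMP2 fell at 48 h (-0.34, SE 0.087, adjusted p = 0.0115), while the 24 h difference of -0.22 had adjusted p = 0.0956. That difference was called with the replicate block (adjusted p = 0.0449), with no filter (0.046) and with trended eBayes (0.044). The 48 h fall missed the threshold without replicate 1 (-0.36, adjusted p = 0.103) and without replicate 3 (-0.30, adjusted p = 0.0889).

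Another LAMP2 probe set, 226671_at, moved the other way and by more. It read 9.70, 9.72 and 9.82 in the 24 h controls and 10.70, 10.82 and 10.49 with Aa. At 48 h it read 10.16, 10.35 and 9.93 in the controls and 11.61, 11.49 and 11.47 with Aa. All Aa arrays lay above all controls of their time. In a fit over all 19629 probe sets past the filter it rose by 0.92 at 24 h (SE 0.125, adjusted p = 0.000604) and by 1.38 at 48 h (SE 0.125, adjusted p = 4.27e-05). The other LAMP2 probe sets did not rise: 203042_at fell at both times (-0.46 and -0.29, adjusted p = 0.00650 and 0.0425), and 203041_s_at fell at 24 h (-0.40, adjusted p = 0.0358) and was at -0.056 at 48 h. The annotation ties 200821_at and 203042_at to RefSeq transcripts of LAMP2, and ties neither 226671_at, which rose, nor 203041_s_at, which fell at 24 h, to one. A fit on each array's median over the LAMP2 probe sets gave -0.33 at 24 h (adjusted p = 0.0296) and 0.13 at 48 h (adjusted p = 0.328). On average 226671_at stood above 203042_at in the Aa arrays (10.67 against 10.48 at 24 h, 11.52 against 10.93 at 48 h). In the controls it stood below (9.75 against 10.94, and 10.15 against 11.22). The median therefore draws partly on different probe sets in Aa and control arrays and does not give a change of LAMP2. Which part of the gene 226671_at reads was not analysed here.

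**Figure D2:**
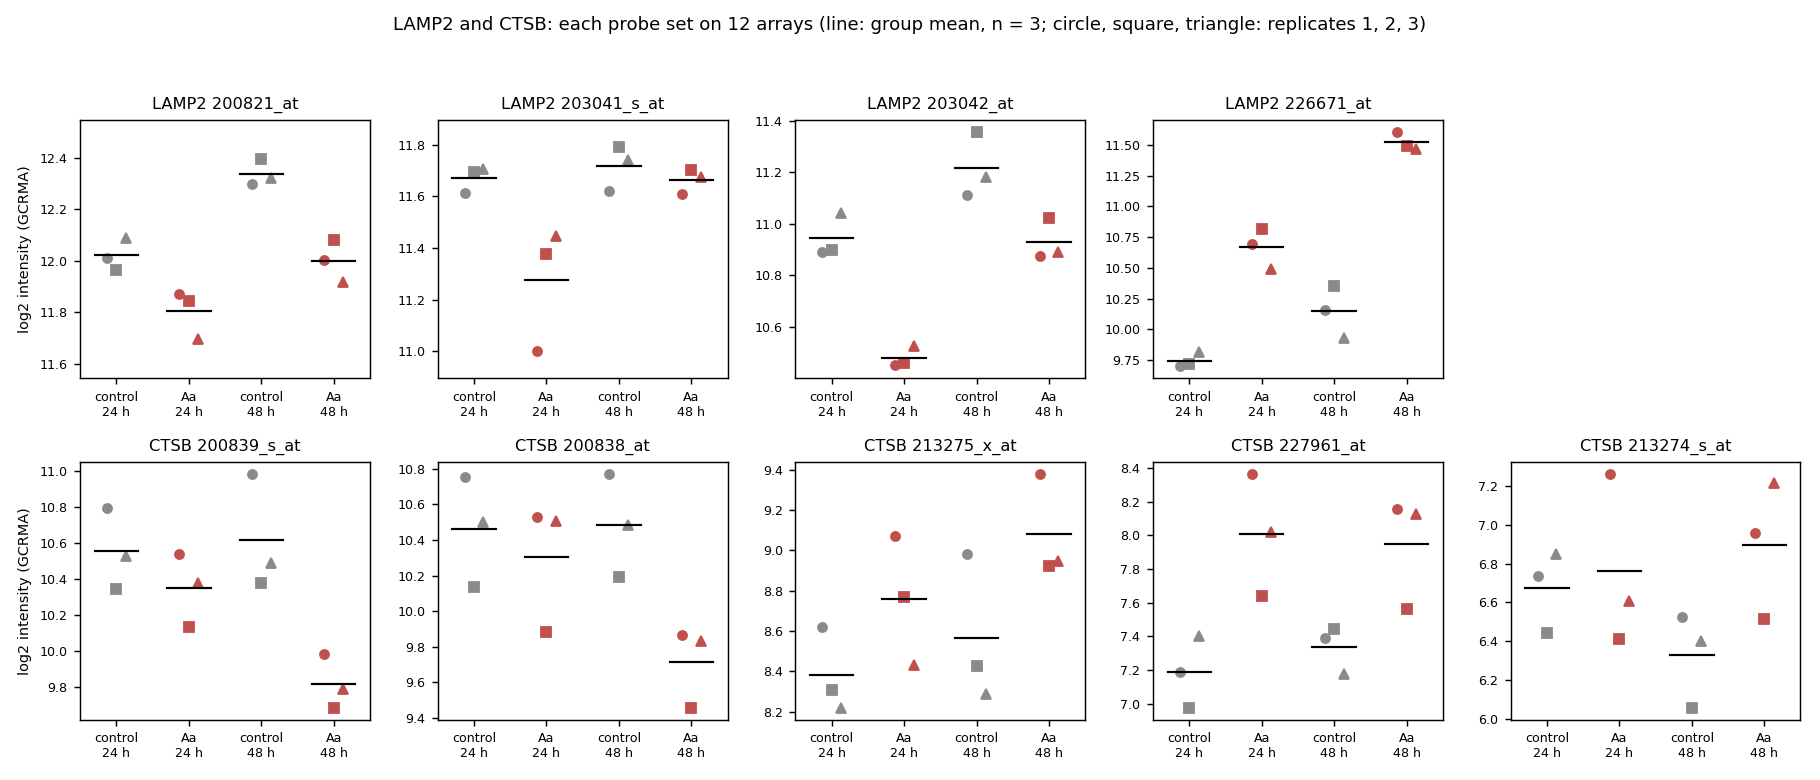
Log2 intensity (y axis) of every LAMP2 and CTSB probe set past the filter by group (x axis), with 1 point per array, 3 arrays per group and a line at each group mean. LAMP2 226671_at and CTSB 227961_at are higher with Aa, while the brightest probe set of each gene, LAMP2 200821_at and CTSB 200839_s_at, is lower at 48 h.

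CTSB, the cysteine protease cathepsin B, had the largest fall among the 10. Its brightest probe set read 10.79, 10.34 and 10.52 in the 24 h controls and 10.54, 10.13 and 10.38 with Aa, so the groups overlapped. At 48 h the controls read 10.98, 10.37 and 10.49 and the Aa arrays 9.98, 9.68 and 9.79, all of them below all controls. CTSB fell 1.74-fold at 48 h (-0.80, SE 0.18, adjusted p = 0.00599), while the 24 h difference was -0.20 (adjusted p = 0.460). The 48 h fall missed the threshold without replicate 3 (-0.85, adjusted p = 0.0701). A second probe set tied to the same transcript, 200838_at, fell by 0.77 at 48 h (adjusted p = 0.0235).

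CTSB too had probe sets that went the other way. Probe set 227961_at read 7.19, 6.97 and 7.40 in the 24 h controls against 8.37, 7.64 and 8.02 with Aa, and 7.39, 7.45 and 7.18 against 8.16, 7.56 and 8.13 at 48 h. Every Aa array was above every control array of its time. It rose by 0.82 at 24 h (SE 0.21, adjusted p = 0.0175) and by 0.61 at 48 h (SE 0.21, adjusted p = 0.0441). With the replicate block 213275_x_at also rose at both times (0.38 and 0.52, adjusted p = 0.00997 and 0.00141) and 213274_s_at rose at 48 h (0.57, adjusted p = 0.0130). A fit on each array's median over the CTSB probe sets gave 0.38 at 24 h (adjusted p = 0.250) and 0.52 at 48 h (adjusted p = 0.0872). These are the changes of 213275_x_at, the middle CTSB probe set by brightness, so this fit adds nothing to that probe set. Of 5263 genes with several probe sets tested, 185 had probe sets called in both directions at 24 h (3.52%), among them LAMP2 of the 7 such genes described here. At 48 h there were 178 (3.38%), among them LAMP2 and CTSB.

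CTSD, the aspartic protease cathepsin D, varied more between replicate numbers than between Aa and control. Its single probe set read 9.91, 8.96 and 9.44 in the 24 h controls, 9.64, 8.62 and 9.42 with Aa, 9.84, 8.93 and 9.57 in the 48 h controls and 9.84, 8.76 and 9.44 with Aa at 48 h. Replicate 2 was the lowest and replicate 1 the highest in all 4 groups. The difference was -0.21 at 24 h (95% interval -1.02 to 0.59, adjusted p = 0.726) and -0.10 at 48 h (-0.91 to 0.70, adjusted p = 0.854). In this fit without the block these were the widest intervals of the 10, and they hold the spread between replicate numbers. The Aa array was below the control of its number in every pair, by differences of -0.27, -0.34 and -0.025 at 24 h and -0.0019, -0.17 and -0.13 at 48 h. With the replicate number as a block the SE was 0.076, in place of 0.37 without it. The adjusted p with the block was 0.0504 at 24 h and 0.284 at 48 h.

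CTSL, the cysteine protease cathepsin L, differed in opposite directions at the 2 times. It read 9.42, 9.34 and 9.45 in the 24 h controls and 9.24, 9.19 and 9.18 with Aa. At 48 h it read 9.33, 9.25 and 9.47 in the controls and 9.82, 9.59 and 9.75 with Aa. The Aa arrays lay below all controls at 24 h and above all controls at 48 h. CTSL rose 1.29-fold at 48 h (0.37, SE 0.093, adjusted p = 0.00998), while the 24 h difference of -0.20 had adjusted p = 0.142 and 0.0456 with the replicate block, a fit that called 41.3% of tested genes at 24 h. The 48 h rise missed the threshold without replicate 1 (0.31, adjusted p = 0.153), without replicate 3 (0.42, adjusted p = 0.0563) and in a fit of the 48 h groups alone (adjusted p = 0.0504).

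MAP1LC3B, the ATG8 protein most used to count autophagosomes, had a course like that of CTSL. Its brightest probe set read 10.74, 10.98 and 11.05 in the 24 h controls and 10.51, 10.71 and 10.84 with Aa. At 48 h it read 10.83, 10.83 and 11.07 in the controls and 11.27, 11.34 and 11.24 with Aa. The groups overlapped at 24 h, although each Aa array was below the control of its number, and at 48 h all Aa arrays were above all controls. MAP1LC3B rose 1.29-fold at 48 h (0.37, SE 0.12, adjusted p = 0.0300), while the 24 h difference of -0.24 had adjusted p = 0.177. The rise missed the threshold in 8 of 24 alternatives, without replicate 1 (0.34, adjusted p = 0.130), without replicate 2 (0.30, adjusted p = 0.212), without any single Aa array of 48 h (0.34 to 0.40, adjusted p = 0.0586 to 0.0726) and without the 48 h control of replicate 1 (0.34, adjusted p = 0.0894) or 2 (0.33, adjusted p = 0.0937). The last was the fit on array medians of both probe sets, at 0.27 (adjusted p = 0.146), since the second, 208785_s_at, differed by 0.16 and was not called.

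GABARAPL1, the other ATG8 protein, was higher with Aa at both times and passed the test at 48 h. Its brightest probe set read 8.20, 7.86 and 8.09 in the 24 h controls and 8.52, 8.46 and 8.22 with Aa. At 48 h it read 8.07, 8.51 and 8.21 in the controls and 8.83, 8.63 and 8.63 with Aa. All Aa arrays were above all controls of their time, by the narrowest margin against the 24 h control of replicate 1 and the 48 h control of replicate 2. GABARAPL1 rose 1.35-fold at 48 h (0.44, SE 0.14, adjusted p = 0.0319), while the 24 h difference of 0.35 had adjusted p = 0.0980. Its second probe set, 208869_s_at, rose by 0.57 at 48 h (SE 0.16, adjusted p = 0.0191). The 48 h rise missed the threshold in 8 of 24 alternatives: without replicate 1 (0.27, adjusted p = 0.293), without replicate 3 (0.44, adjusted p = 0.150), without the Aa arrays of replicate 1 (0.37, adjusted p = 0.111) or 3 (0.47, adjusted p = 0.0572), without the control arrays of replicate 1 (0.34, adjusted p = 0.113) or 3 (0.41, adjusted p = 0.0798), with no filter (adjusted p = 0.0539) and with the 48 h groups alone (adjusted p = 0.0636).

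SQSTM1, the cargo receptor also known as p62, was not called at either time. Its brightest probe set ranged from 11.39 to 11.62 in the 24 h controls and from 11.47 to 11.84 with Aa, and from 11.49 to 11.87 and from 11.69 to 12.03 at 48 h. The difference was 0.13 at 24 h (95% interval -0.18 to 0.44, adjusted p = 0.555) and 0.19 at 48 h (-0.12 to 0.50, adjusted p = 0.317). At 48 h each Aa array was 0.16 to 0.20 above the control of its number. On the probe set 213112_s_at all Aa arrays were above all controls at 24 h, by 0.36 on average (adjusted p = 0.137, and 0.0548 with the block). At 48 h its difference was 0.069. A dim SQSTM1 probe set, 239004_at, was lower at 24 h with the block (-0.28, adjusted p = 0.0496), and 242568_s_at had a mean of 2.27 and did not pass the filter.

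**Figure D3:**
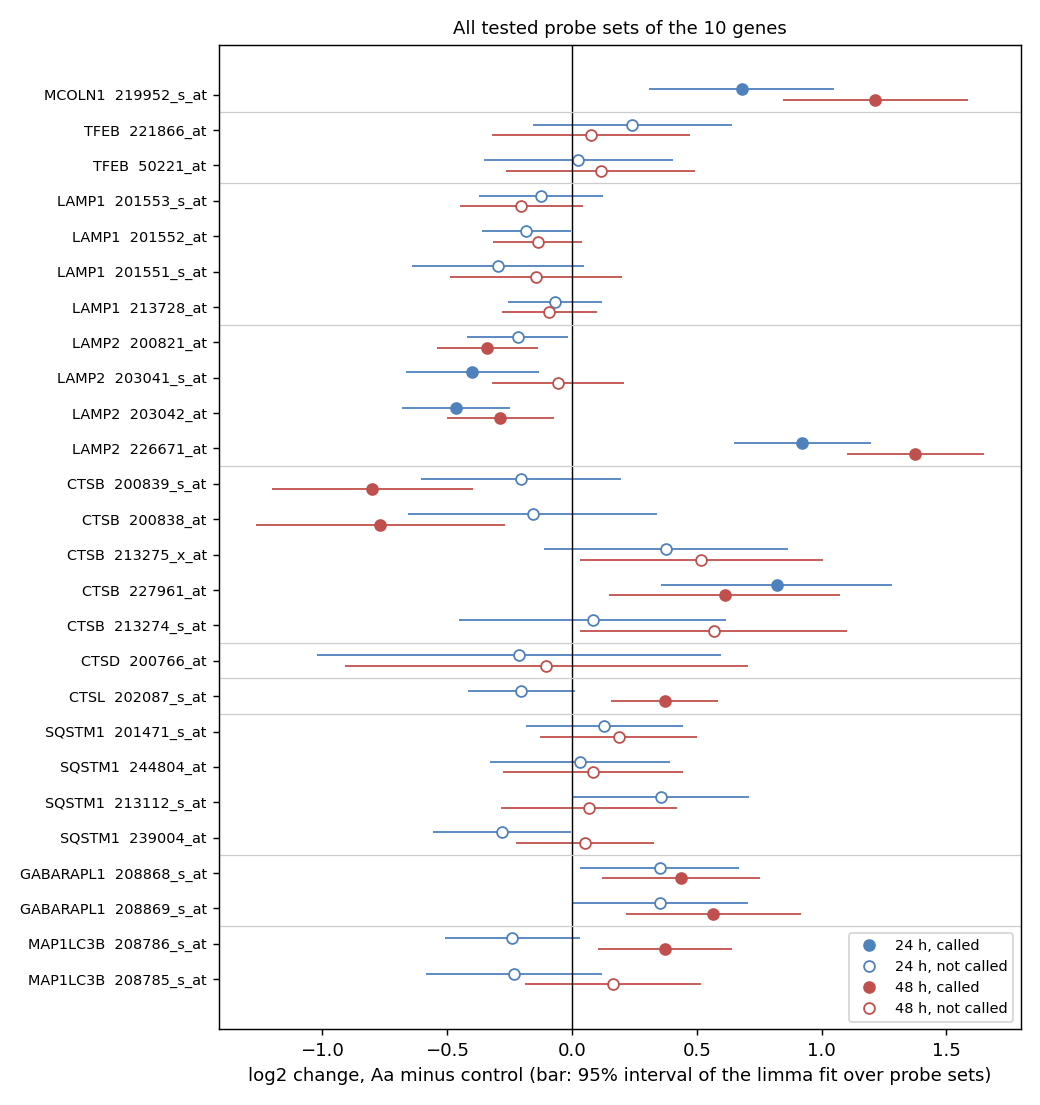
Log2 change (x axis, Aa minus control) of all 26 tested probe sets of the 10 genes (y axis) at 24 h and 48 h, with 95% intervals of the limma fit over probe sets, filled where called. LAMP2 and CTSB have filled points on both sides of 0 at 48 h.

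Over the 26 probe sets tested, 3 rose and 2 fell at 24 h and 7 rose and 4 fell at 48 h. In the fit over probe sets 22.3% were called at 24 h and 33.9% at 48 h. MCOLN1, LAMP2 226671_at and CTSB 227961_at were the 3 that rose at 24 h, and both falls were of LAMP2. At 48 h these 3 rose with CTSL, both GABARAPL1 probe sets and 1 of the 2 of MAP1LC3B. The falls at 48 h were 2 probe sets each of LAMP2 and CTSB. With the replicate block 4 rose and 4 fell at 24 h and 9 rose and 5 fell at 48 h, in a fit that called 39.7% and 51.1% of all tested probe sets. Without replicate 1 only 1 and 3 probe sets were called at 24 h and 48 h, and without replicate 3 it was 1 and 2. Calls over all tested genes dropped too, at 24 h from 2494 to 536 without replicate 1 and to 824 without replicate 3. At 48 h they dropped from 4083 to 1549 without replicate 1.

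Whether the effect of Aa differed between the times was tested directly. None of the 10 genes passed, where 0.825% of tested genes did. MAP1LC3B (0.61, SE 0.17, adjusted p = 0.130), CTSL (0.57, SE 0.13, adjusted p = 0.0807), CTSB (-0.60, SE 0.25, adjusted p = 0.319) and MCOLN1 (0.54, SE 0.23, adjusted p = 0.334) had an unadjusted p under 0.05, as had 1534 of all genes. With the replicate block CTSL (adjusted p = 0.0119), MAP1LC3B (adjusted p = 0.0190) and CTSB (adjusted p = 0.0158) were called, 3 of 10, where 11.0% of tested genes were. The Aa and control arrays of equal number differed for CTSL by -0.18, -0.16 and -0.27 at 24 h and by 0.49, 0.34 and 0.28 at 48 h. For the brightest MAP1LC3B probe set the same differences were -0.23, -0.27 and -0.21 and then 0.44, 0.51 and 0.17. Its second probe set, 208785_s_at, had differences of 0.40, 0.26 and -0.17 at 48 h. There the change between times was not called (0.40, adjusted p = 0.499, and 0.128 with the block). CTSL also passed without the 48 h Aa array of replicate 2 (0.64, adjusted p = 0.0398).

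**Figure D4:**
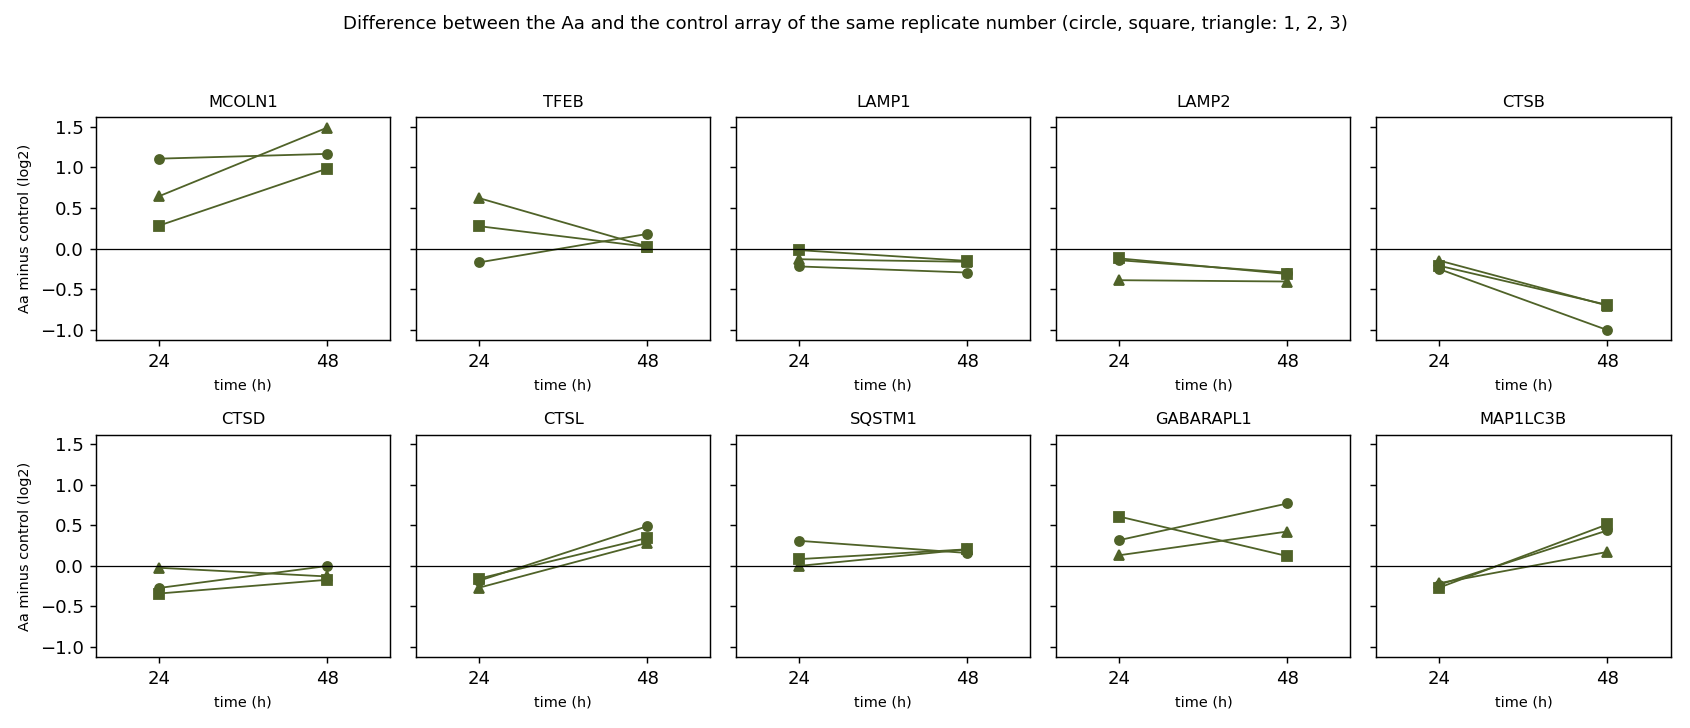
Difference between the Aa and the control array of equal replicate number (y axis, log2) at 24 h and 48 h (x axis) for the 10 genes, with 1 line per replicate number. The brightest probe set of each gene is shown. CTSL and MAP1LC3B lie below 0 at 24 h and above 0 at 48 h in all 3 lines, and MCOLN1 lies above 0 throughout.

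In control cells, none of the 10 genes was called between 24 h and 48 h, where 0.5% of tested genes were. One of the 10 and 1800 of all genes had an unadjusted p under 0.05. That one was LAMP2, higher at 48 h by 0.32 (SE 0.087, adjusted p = 0.124), and it rose with the replicate block (adjusted p = 0.0226), a fit that called 17.8% of tested genes. The LAMP2 difference between Aa and control at 48 h is thus set against controls that were higher than those of 24 h. MCOLN1 differed by -0.22 between the control times (adjusted p = 0.525).

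Further genes of the same system were read in 8 lists with 188 tested genes. Of these 13 rose and 20 fell at 24 h (17.6%), and 23 rose and 35 fell at 48 h (30.9%), beside 23.1% and 37.8% of all tested genes. Their median change was -0.080 and -0.026. Both directions occurred in every list at 48 h.

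Among 33 lysosomal hydrolases none rose and 6 fell at 24 h, and 3 rose and 4 fell at 48 h, with medians of -0.13 and 0.0080. CTSH, another cathepsin, fell at both times (-0.64 and -1.59, adjusted p = 0.0194 and 0.000104). GLA, the galactosidase deficient in Fabry disease, fell likewise (-0.95 and -0.69), as did GM2A, the activator protein for ganglioside breakdown (-0.88 and -0.92). CTSV, a close relative of CTSL, rose by 0.97 at 48 h (adjusted p = 0.00175) after a difference of -0.22 at 24 h (adjusted p = 0.393). Among 24 genes of the lysosomal membrane and of transport to the lysosome, 1 rose and 1 fell at 24 h, and 2 rose and 7 fell at 48 h (medians -0.10 and -0.073). CTNS, the cystine exporter, fell (-0.98 and -1.27, adjusted p = 0.000125 and 1.72e-05). MCOLN2, a relative of MCOLN1, fell by 0.84 at 48 h (adjusted p = 0.000313), opposite to MCOLN1, with 1 of its 2 probe sets called. MCOLN3 was not called (-0.078 at 48 h, adjusted p = 0.786). SLC17A5, the sialic acid exporter, fell by 0.94 at 48 h. MFSD8, a lysosomal membrane protein, rose by 1.41 and 1.07, as 2 of its 3 probe sets did. A fit on each array's median over the 3 probe sets gave -0.55 and -0.25 (adjusted p = 0.0699 and 0.339).

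Among 17 subunits and partners of the proton pump that acidifies the lysosome, 2 rose and 1 fell at 24 h and 3 rose and 1 fell at 48 h (medians 0.016 and 0.11). ATP6V0A2 rose by 2.68 and 2.43 (adjusted p = 8.43e-06 and 7.67e-06) on its brightest probe set, yet its 3 probe sets were called in both directions, and a fit on each array's median over them gave 0.36 and 0.0064 (adjusted p = 0.316 and 0.988). ATP6V0B rose by 0.64 and 0.74 on its single probe set, ATP6V1H fell by 0.49 at 48 h, and ATP6V1D fell by 0.57 at 24 h. By array medians over its probe sets ATP6V1D was at -0.17 at 24 h (adjusted p = 0.322). Among 32 genes of the TFE factors and of mTORC1 nutrient sensing, 2 rose and 2 fell at 24 h and 2 rose and 5 fell at 48 h (medians -0.069 and 0.040). MLST8, an mTOR complex subunit, fell (-1.41 and -1.34), and DEPTOR, which binds and inhibits mTOR, fell by 1.06 at 48 h. PPP3CA, a catalytic subunit of calcineurin, fell by 1.29 at 48 h (adjusted p = 0.000530), and TSC1, which restrains mTORC1, rose by 0.69 and 0.62. PPP3CB and PPP3R1 of the same list were not called (-0.22 and 0.27 at 48 h, adjusted p = 0.0729 and 0.345).

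Among 26 genes of autophagy initiation and nucleation 1 rose and 5 fell at 24 h and 4 rose and 5 fell at 48 h (medians 0.098 and -0.021). BECN1, part of the lipid kinase complex that starts autophagosomes, rose by 0.32 and 0.71 (adjusted p = 0.0417 and 0.000475), and ATG2A, a lipid transfer protein, rose by 1.08 at 48 h. VMP1 fell (-1.24 and -1.36), and SH3GLB1 fell (-0.74 and -0.83) although 1 of its 3 probe sets rose. BECN1 at 24 h missed the threshold by array medians over its probe sets (0.28, adjusted p = 0.0554). Among 12 genes of the ATG8 family and its conjugation machinery 2 rose and 2 fell at 24 h and 3 rose and 4 fell at 48 h (medians 0.055 and 0.18). ATG16L1 rose by 0.50 and 1.03 and ATG12 by 0.47 and 0.58, while ATG5, which is joined to ATG12, fell (-0.61 and -0.43), and so did ATG7, the activating enzyme (-1.62 and -1.91). Of the 3 ATG5 probe sets 1 rose at 24 h. By array medians over its probe sets ATG12 was at 0.38 at 24 h (adjusted p = 0.159). Without probe sets marked for shared sequence ATG7 rose by 0.27 at 24 h (adjusted p = 0.0493), opposite to the fall on its brightest probe set. At 48 h it was then at -0.064 (adjusted p = 0.620). The brightest ATG7 probe set read from 3.99 to 5.89 in the 48 h Aa arrays, near the filter. By array medians over its 2 probe sets ATG16L1 was at -0.077 at 24 h.

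Among 17 autophagy receptors and proteins that act with them 1 rose and 1 fell at 24 h and 1 rose and 4 fell at 48 h (medians -0.15 and -0.17). The gene that rose at both times was KEAP1, which SQSTM1 binds and which is not itself a receptor (0.66 and 0.77, adjusted p = 0.0383 and 0.0134). NBR1, BNIP3 and CCPG1 fell at 48 h (-0.42, -0.38 and -0.52). Among 27 genes of autophagosome and endosome fusion 4 rose and 2 fell at 24 h and 5 rose and 5 fell at 48 h (medians -0.093 and -0.053). VPS33A and VPS11, subunits of the tethering complexes, rose by 0.73 and 0.43 and by 0.79 and 0.74, BLOC1S1 fell (-0.60 and -0.72), and TECPR1 fell by 1.53 at 48 h. By array medians over its probe sets VPS33A was at 0.13 at 48 h (adjusted p = 0.296). Without probe sets marked for shared sequence TECPR1 was at 0.065 at 24 h and -0.053 at 48 h.

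With the replicate block more genes of the lists were called, as were more of all tested genes, 41.3% at 24 h and 54.8% at 48 h. At 24 h 3 hydrolases rose and 10 fell, 9 initiation genes rose and 5 fell, and 4 genes of nutrient sensing rose and 7 fell. For the membrane, pump, conjugation, receptor and fusion lists the counts up and down were 1 and 4, 3 and 2, 3 and 3, 2 and 5, and 6 and 6. At 48 h they were 8 and 7 for hydrolases, 6 and 5 for the pump, 4 and 8 for nutrient sensing, 7 and 8 for initiation, 2 and 8 for the membrane, 5 and 5 for conjugation, 3 and 5 for receptors and 8 and 5 for fusion. Of the named list genes, PPP3CA (-0.56, adjusted p = 0.0215), SLC17A5 (-0.32, adjusted p = 0.0319) and BNIP3 (-0.22, adjusted p = 0.0288) fell and ATG2A rose (0.49, adjusted p = 0.0113) at 24 h with the block, and ATP6V1D fell at 48 h (-0.33, adjusted p = 0.00878). PPP3CA was also called at 24 h in other alternatives (adjusted p from 0.0132), as were ATG2A (from 0.0295) and, in fits of the 24 h groups alone or without the 48 h Aa array of replicate 2, TECPR1 (0.0378 and 0.0379). ATP6V1D was called at 48 h without the 48 h Aa array of replicate 2 as well (0.0417). Without replicate 1 each list held 0 to 6 called genes at 48 h, and without replicate 3 it held 1 to 7, in place of 4 to 10. At 24 h each held 0 to 2 in both settings, in place of 2 to 6. Over all tested genes the calls at 24 h dropped as well, from 2494 to 536 without replicate 1 and to 824 without replicate 3. At 48 h BNIP3, KEAP1, CCPG1, ATG12, VPS33A, ATP6V1H, DEPTOR and BLOC1S1 lost their calls in both of these settings (adjusted p 0.0543 to 0.151). SLC17A5, MLST8, ATG5, NBR1 and VPS11 lost theirs without replicate 1 (0.0589 to 0.0902), and ATG7 and TSC1 without replicate 3 (0.0599 and 0.0907). CCPG1 lost it also without replicate 2 (0.0743). At 24 h CTSH, ATP6V1D, BECN1, ATG16L1, ATG12, KEAP1 and BLOC1S1 lost theirs both without replicate 1 and without replicate 3, with adjusted p from 0.0539 to 0.259, and CTSH also without replicate 2 (0.0848). MLST8, VMP1, ATG5, VPS33A and VPS11 lost theirs at 24 h without replicate 1 (0.0508 to 0.0904), and TSC1 and ATG7 without replicate 3 (0.161 and 0.180). KEAP1 and CCPG1 at 48 h, and CTSH, ATP6V1D, BECN1, ATG12, KEAP1 and BLOC1S1 at 24 h, also lost theirs without single arrays (0.0501 to 0.146). With no filter ATG12 and KEAP1 lost theirs at 24 h (0.0530 and 0.0859), and in fits of 1 time alone BECN1 and ATG12 at 24 h (0.0997 and 0.0685) and CCPG1 at 48 h (0.0763).

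**Figure D5:**
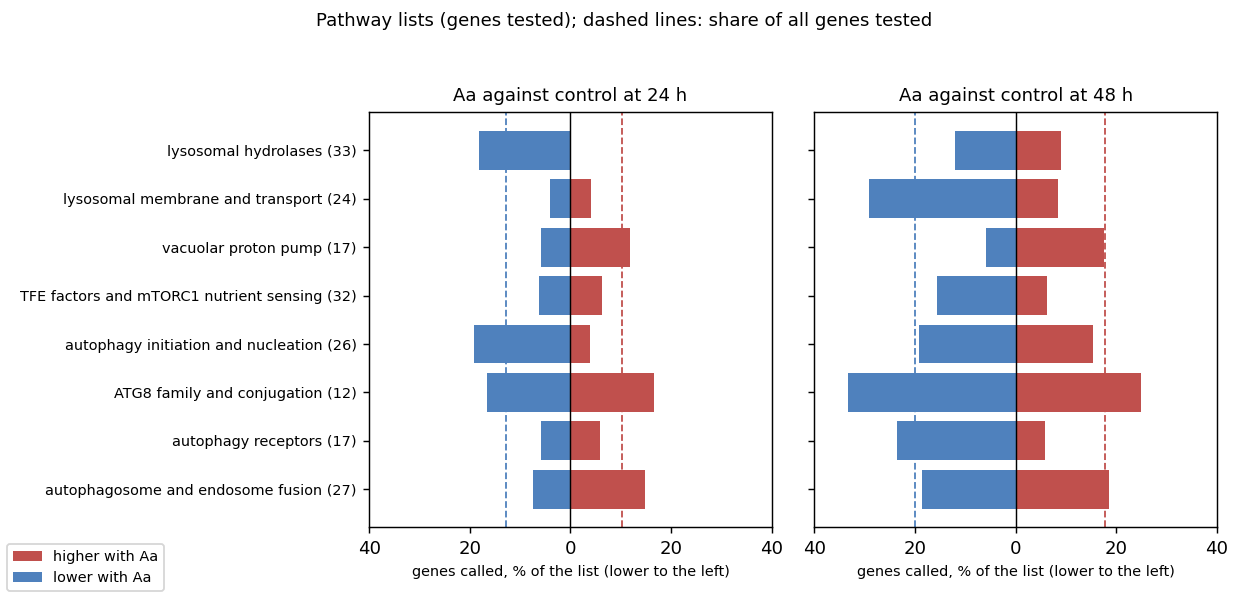
Percent of the tested genes of each list (y axis, number tested in brackets) that were higher (right) or lower (left) with Aa at 24 h and 48 h, with dashed lines at the share of all tested genes, 10.3% and 12.8% at 24 h and 17.8% and 20.1% at 48 h. The hydrolases have no gene higher with Aa at 24 h, and each list has genes on both sides at 48 h.

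Genes with and without the longer E-box moved in both directions. Of 17 genes of the lists and the 10 genes described whose window held TCACGTGA, 2 rose and 2 fell at 24 h and 3 rose and 2 fell at 48 h, with medians of -0.11 and -0.0094. Of 142 whose windows did not hold it, 11 rose and 16 fell at 24 h and 22 rose and 24 fell at 48 h, with medians of -0.079 and 0.0089. Over all tested genes, 220 had TCACGTGA in a window, and 26 of them rose and 20 fell at 24 h. At 48 h 39 of them rose and 49 fell. Of the 8706 whose windows did not hold it, 879 rose and 1159 fell at 24 h and 1553 rose and 1764 fell at 48 h. MCOLN1 with 2 copies of CACGTG rose, LAMP1 with 6 copies was not called, and GABARAPL1 with none rose at 48 h. Whether the E-box has a part in these changes was not tested.

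The spans of the list genes from start to end in the genome were also read, with no test. At 48 h the 35 list genes that fell had a median span of 60.6 kb and 12 of them spanned over 100 kb, while the 23 that rose had a median of 28.3 kb with 1 over 100 kb and the 130 not called had 31.0 kb with 14. At 24 h the 20 that fell had a median of 26.7 kb with 5 over 100 kb, and the 13 that rose had 43.0 kb with 1, so the order of the medians was the other way round. The 10 genes described spanned from 5.35 kb (CTSL) to 52.2 kb (TFEB), with MCOLN1 at 11.4 kb and LAMP2 at 43.2 kb.

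The tested genes outside the 10 whose pattern was most like that of MCOLN1 were UBFD1, LUC7L and KLHL18. Likeness was the mean absolute difference over the 12 arrays after each gene was centred on its own mean, and it was 0.103, 0.106 and 0.108. They rose by 0.54, 0.54 and 0.65 at 24 h and by 1.05, 1.12 and 1.05 at 48 h. The nearest of the 10 to MCOLN1 was GABARAPL1, at 0.33, and the farthest was CTSB, at 0.72. These likenesses describe the same 12 arrays that showed the rise of MCOLN1. By array medians over probe sets UBFD1 was at 0.19 (adjusted p = 0.363) and LUC7L at 0.39 (adjusted p = 0.0660) at 24 h. UBFD1, LUC7L and KLHL18 lost their calls at 24 h without replicate 1 (adjusted p 0.171 to 0.252) and without replicate 3 (0.0910 to 0.218), and LUC7L and KLHL18 also without single arrays (0.0517 to 0.0822).

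Over probe sets, arrays of the same group correlated with r from 0.994 to 0.997 and arrays of other groups from 0.980 to 0.997. Of 14 proximal tubule markers with a probe set, CDH6, ABCC4, PAX8 and SLC3A1 passed the filter, while LRP2, CUBN and AQP1 and 7 others were below it. None of the 4 was called at 24 h and all 4 were at 48 h. The log2 of the markers' summed intensities then ran from 13.31 to 13.62 in controls and from 12.18 to 12.83 with Aa. The brightest markers weigh most in this sum, so it does not give the direction of each of the 4. Of markers of distal nephron, fibroblasts, endothelium and leukocytes 1 of 6, 4 of 8, 1 of 7 and 0 of 7 passed the filter. The distal nephron marker past it, SCNN1A, was called at 48 h. The log2 of that list's summed intensities then ran from 9.49 to 9.55 in controls and from 10.13 to 10.50 with Aa. Of the fibroblast markers 1 was called at 24 h. The log2 of their summed intensities was then 12.26 to 12.72 in controls and 12.01 to 12.37 with Aa. Control probe sets for 28S ribosomal RNA averaged 6.37 ± 0.079 (SD, n = 3) and 7.28 ± 0.22 in control and Aa arrays at 24 h and 6.74 ± 0.16 and 7.56 ± 0.25 at 48 h. The changes across all genes in the pair of arrays numbered 2 had slopes of 0.65 and 0.72 on those of the other pairs, against 1.01 to 1.10 for pairs 1 and 3. The part of these differences in the results for the 10 genes was not tested.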

How the data were processed

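RNA of 12 HK-2 cultures was hybridised to Affymetrix arrays, 3 per group. The authors' deposited values are log2 intensities normalised with GCRMA, per the submitters' processing notes, which name no version. They ran from 0.82 to 16.25, with array medians of 2.93 to 3.01. The number of arrays limits the precision. The labels call them biological replicates and say no more, so each p-value reflects only how these arrays varied, which may be technical. The 10 genes, the lists and the alternatives were chosen with earlier results of these data known.

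Of 54675 probe sets, the platform annotation gives 41097 exactly 1 gene symbol, 1801 several and 11777 none, and only the first were used. For 41043 of the probe sets used the gene was found in RefSeq and its symbol there was taken, and for 54 the annotation's symbol was kept. Each gene was represented by its brightest probe set with a mean of at least 4. A model of 4 group means was fitted with limma 3.58.1 in R 4.3.3 (eBayes without trend, 8 residual and 2.76 prior degrees of freedom, 2-sided tests), and tables were made with Python 3.11.15 and pandas 2.3.3. The fit was checked on simulated arrays with planted changes. Their noise was independent between arrays, so the check does not cover the pairing by replicate number described below. From each list up to 4 genes with the smallest p at either time are named.

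Replicate numbers pair the arrays. After group means were subtracted, the 18 pairs of arrays with equal numbers correlated with r from 0.35 to 0.62 and the 36 other pairs from -0.49 to -0.01, and each of the 12 arrays was nearest to one of its own number. This pairing is read from the data and not from the labels. Blocked values stand beside results whose call or count they change. Alternatives were filters of none and 6, each array's median over a gene's probe sets, no probe sets named for shared sequence, quantile and median scaling, trended and robust eBayes, the compared groups alone, the block, and each replicate or array left out.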

Additional observations from a re-analysis of the deposited data

Results flagged for a closer look

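CTSL was marked because all 3 pairs of equal replicate number were lower with Aa at 24 h and higher at 48 h. Its effect at 48 h minus that at 24 h was 0.57 (adjusted p = 0.0807 in limma, and 0.0119 with the replicate block).

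MAP1LC3B was marked for the same course in all 3 pairs of its brightest probe set. Its effect at 48 h minus that at 24 h was 0.61 (adjusted p = 0.130 in limma, and 0.0190 with the replicate block). The second MAP1LC3B probe set, 208785_s_at, was lower with Aa in pair 3 at 48 h (-0.17). Its change between times was 0.40 (adjusted p = 0.499 in limma, and 0.128 with the block).

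The probe set named for both GABARAPL3 and GABARAPL1 lies outside the 27 described and was marked because its signal was above that of the controls. It averaged 8.97 ± 0.20 (SD, n = 3) in the 24 h controls and 9.43 ± 0.11 with Aa, a difference of 0.46, and 9.29 ± 0.17 and 9.81 ± 0.20 at 48 h, a difference of 0.52. All Aa arrays were above all controls of their time. No test was made of this probe set, and signal of the 2 genes cannot be told apart on it.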

How the results depend on the processing

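Of 970 values of the 10 genes under the alternatives, 886 kept their direction and their side of the threshold, 26 lost and 11 gained a call, and 47 changed sign. Of 1720 values of the other named genes, 1584 kept both, 112 lost and 19 gained a call, and 5 changed sign.

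At 24 h 1 of the 10 genes was called, and 2 were with no filter, with the median over probe sets and with trended eBayes, 3 with the replicate block, 0 without probe sets named for shared sequence, where MCOLN1 is not tested, and 0 to 1 when 1 replicate or array was left out. At 48 h 6 were called, and 3 with the median over probe sets, 2 (LAMP2 and CTSB) of the 6 genes still tested without shared-sequence probe sets, where MCOLN1, CTSL, GABARAPL1 and MAP1LC3B have no probe set left, and from 2 without replicate 1 or replicate 3 to 6 in the leave-outs. The change between times was called in 0 genes, in 3 with the replicate block and in 0 to 1 in the leave-outs. The control comparison gave 0 and, with the block, 1. Probe sets called were 5 at 24 h, 8 with the block and 1 to 4 without 1 replicate. At 48 h they were 11 and 2 to 7. For the change between times and the controls they were 0, and 4 and 2 with the block. The block changed no call of the 10 genes beside those given above.

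The median over probe sets was taken on the intensities of each array before the fit, so it is not the median of the probe sets' changes. It can also draw on different probe sets in different arrays, as it did for LAMP2. With it CTSB was 0.38 at 24 h and 0.52 at 48 h, LAMP2 0.13 at 48 h, MFSD8 -0.55 and -0.25, and ATG16L1 -0.077 at 24 h. The change between times was then 0.099 for LAMP1, 0.46 for LAMP2, 0.14 for CTSB and -0.12 for SQSTM1, and the control difference of LAMP1 was -0.14. Without shared-sequence probe sets ATG7 was 0.27 at 24 h, called as a rise (adjusted p = 0.0493), and TECPR1 was 0.065. LAMP1 was then 0.045 for the change between times and -0.087 in controls. Median centring put MAP1LC3B in controls at 0.0030.

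Other sign changes came from leaving out 1 replicate or array of uncalled genes. The ranges were -0.45 to 0.091 for CTSD at 24 h, -0.36 to 0.19 for CTSD and -0.0030 to 0.13 for TFEB at 48 h. For the change between times they were -0.098 to 0.37 for GABARAPL1, -0.42 to 0.065 for TFEB, -0.048 to 0.16 for SQSTM1 and -0.19 to 0.40 for CTSD. For the controls they were -0.12 to 0.18 for CTSB, -0.0090 to 0.38 for GABARAPL1, -0.10 to 0.054 for MAP1LC3B, -0.085 to 0.34 for TFEB, -0.23 to 0.27 for CTSD and -0.020 to 0.088 for LAMP1.

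Over all tested genes 2494 were called at 24 h, 4457 with the block, 536 without replicate 1 and 824 without replicate 3. At 48 h it was 4083, with 1549 and 2322 without those replicates. For the change between times it was 89, 1183 with the block, 48 without shared-sequence probe sets, 57 after median centring and 0 to 255 in the leave-outs. For the controls it was 54, 1919 with the block, 16 with the median over probe sets, 0 in the fit of those groups alone and 1 to 361 in the leave-outs. The cause of these differences was not tested, and leave-outs use fewer arrays. Signal over background limits TFEB and the dim SQSTM1 probe sets, which lie near the filter. It also limits ATG7, TECPR1 and CCPG1, whose lowest 48 h Aa arrays read 3.99, 4.04 and 4.57.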
